A study of Homo sapiens with 12 samples.

Results

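The class described here is the set of small nuclear, small nucleolar, Cajal body and other structural noncoding RNAs on whole-genome arrays of PC-3 cells. These cells are an established line from a human prostate cancer. A probe belonged to the class when its RefSeq noncoding transcript mapped to a symbol beginning with SNORA, SNORD, SCARNA, RNU, RN7S, RNY or VTRNA, or to RMRP, RPPH1, TERC or RNA18SN5. This held for 38 of 34127 non-control probes, which read 36 of the 25748 genes tested, and no Y RNA or vault RNA was among them. The rule uses names alone, but the class was chosen by measured values as well, those of RN7SK and SNORA28 in PIM1 against control cells and of RNA18SN5 in PIM1+WT against PIM1+MM cells, which were known to be low. For those 2 comparisons the values of the class are therefore a description without a test.

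Each of 6 groups had 2 samples. Control cells carried the empty pcDNA3.1 vector and PIM1 cells the same vector with human PIM1, a serine/threonine kinase, each line being a pool of G418-selected cells that also received a Td-Tomato plasmid. WT and MM cells had no stable PIM1 and received a plasmid for a transient expression of NFATC1, a transcription factor, either as the wild type or as the multi mutant, which lacks the phosphorylation sites of PIM1. PIM1+WT and PIM1+MM cells were the stable PIM1 cells given the same plasmids. No group with an empty vector in the transient transfection was analysed here, so that adding NFATC1 and transfecting cells cannot be told apart. Cy3 was the dye of control, WT and PIM1+WT, and Cy5 that of PIM1, MM and PIM1+MM, and no dyes were swapped. Comparisons of a Cy3 with a Cy5 group therefore cannot tell group and dye apart, whereas those within a dye, and the interaction, are free of a fixed dye difference. Nothing in the labels says that the 2 samples of a group came from separate cultures, and p-values then measure only the spread between these samples, which may be technical.

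The RNAs of this class work as cores of ribonucleoproteins. Box C/D and box H/ACA snoRNAs guide 2′-O-methylation and pseudouridylation of ribosomal RNA, or take part in its cleavage, while scaRNAs do the same for spliceosomal snRNAs in Cajal bodies. Most snoRNAs and scaRNAs of human cells are cut from introns of host genes, whereas 7SK, 7SL and the RNAs of RNase P and RNase MRP are made by RNA polymerase III. Most of these RNAs have no poly(A) tail, and the labelling kit used here primes cDNA with oligo-dT, so that how fully an RNA of this kind entered the labelled material is not known. In RNA from whole cultures, fewer cells that express an RNA and less RNA per cell cannot be told apart either.

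Raw intensities had channel medians of 86 to 139 (Cy3) and 176 to 318 (Cy5), and between 56.9% and 69% of spots were well above background by the scanner software's flag. Values below are quantile-normalized log2 intensities. The epithelial keratin KRT18 read between 13.91 and 14.23, and the leukocyte marker PTPRC between 6.43 and 6.77. Epithelial EPCAM read 9.17 to 9.42 in the libraries labelled without stable PIM1 and 8.47 to 8.93 in those labelled with it, and the endothelial marker PECAM1 read 6.86 to 6.97 and 7.75 to 7.92. Both thus split the samples as SCARNA13 does below, and the part of what they mark in the results was not tested. PIM1 itself read 10.05 and 9.85 in control, 10.22 and 10.1 in WT and 10.14 and 10.12 in MM libraries, against 10.32 and 10.08 in PIM1, 9.9 and 9.96 in PIM1+WT and 10.21 and 10.36 in PIM1+MM libraries, so that PIM1+WT libraries lay below WT libraries, against their label. NFATC1 read 9.88 and 9.81 in MM and 9.65 and 9.65 in PIM1+MM libraries, 7.99 and 8.06 in WT, 7.57 and 7.59 in PIM1+WT, 7.6 and 7.56 in control and 7.02 and 6.81 in PIM1 libraries. The PIM1+WT libraries thus read NFATC1 at the level of control libraries, and the arrays do not show that these cells carried more of it. The paper reports that real-time qPCR on the microarray samples showed overexpression of PIM1 and/or NFATC1. Those qPCR values were not used here. Whether the probes for PIM1 and NFATC1 lie in the transfected sequences is not known. Group names below are those of the labels, and each direction rests on them. Spike-in controls had raw log2 medians of 9.72 and 9.56 in the PIM1+WT channels and between 10.99 and 11.38 in the other Cy3 channels, and their part in the PIM1+WT results was not tested. In PIM1+MM replicate 2 the median raw intensity of the first 33 of 532 array rows was 82.8% of that of the other rows, against 90.4% to 103% in the other channels, and both probes of SNORA73B lie there.

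The 36 genes comprised 12 scaRNAs, 10 H/ACA snoRNAs, 4 C/D snoRNAs, 2 U105 snoRNAs, the U2 and U12 snRNAs, and 1 gene each for 7SK, 7SL, 18S rRNA, RNase MRP, RNase P and telomerase RNA. All 36 passed the filter on low intensity, 32 of them in all 12 channels. The signal was well above background on all arrays for 26 genes and on some for 7, while RNU105B, RNU105C and SCARNA10 were not so on both arrays of any group. Annotated RNA lengths were 94 to 451 bases, apart from 1869 for 18S rRNA. Probes for RNA18SN5, RN7SL1, SNORD3B-1, RNU2-1, SNORA73A and SNORA73B, SNORA74A and SNORA74B, and SCARNA9 and SCARNA9L may also bind near-identical copies of these RNAs, so that their values are uncertain as to the copy.

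**Figure D1:**
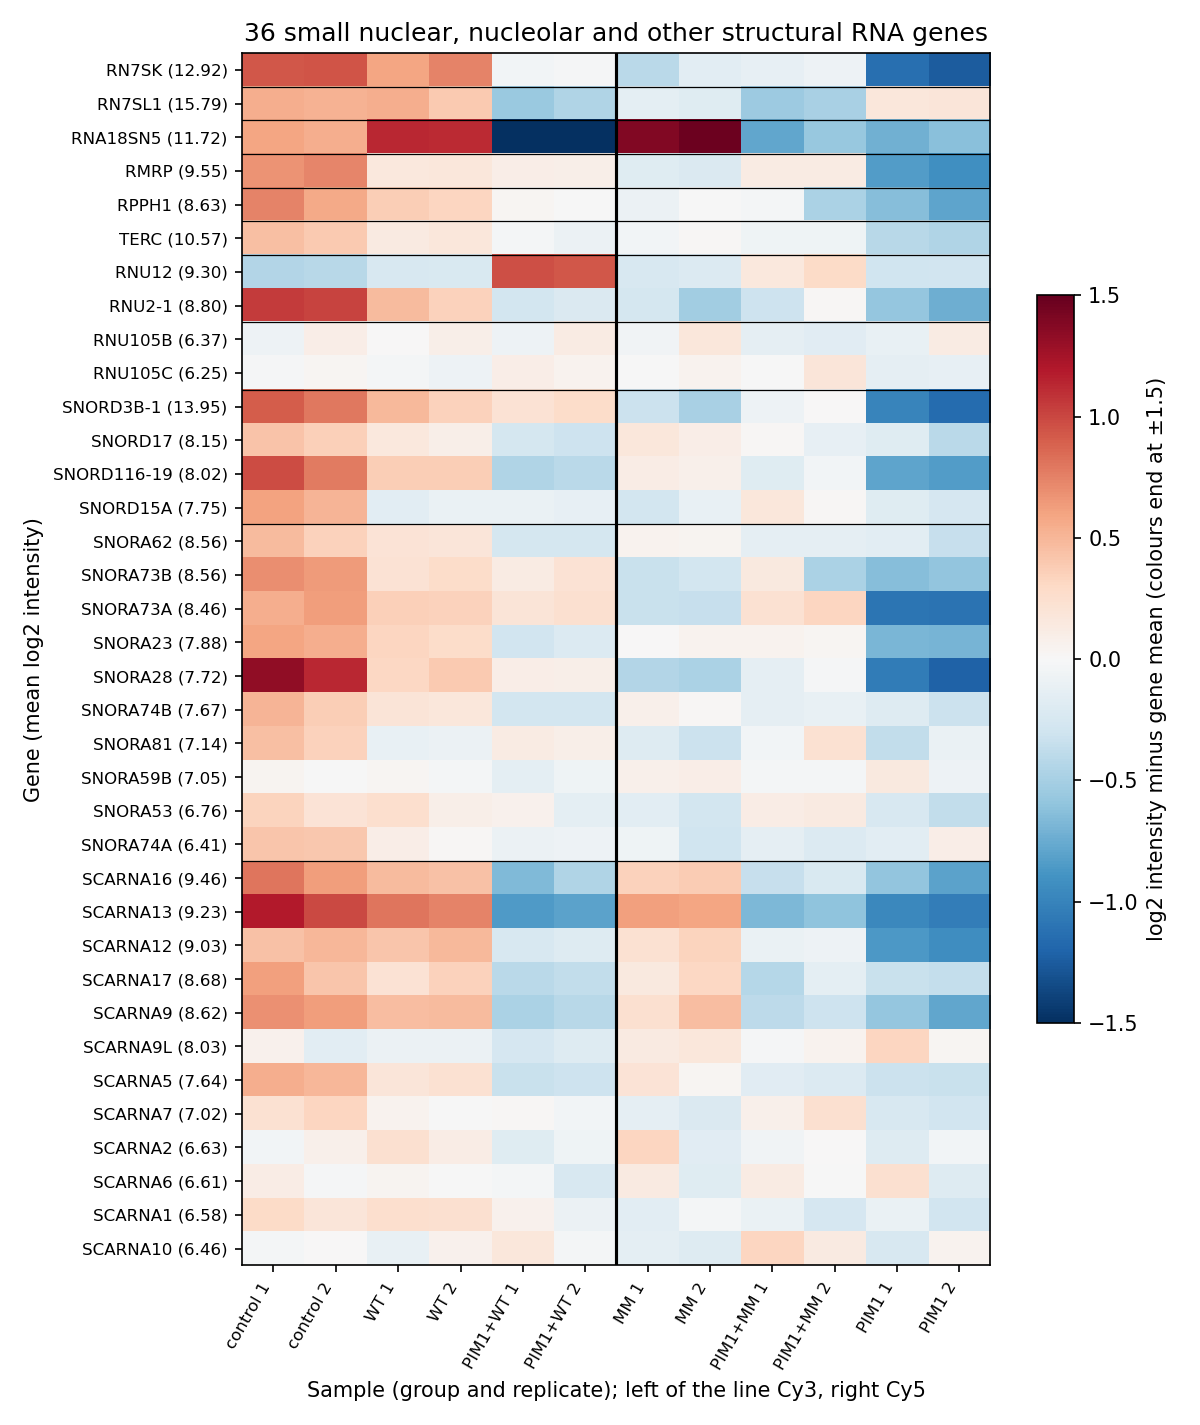
Heat map of the 36 genes (rows, by class, with the mean log2 intensity in parentheses) in the 12 samples (columns), where colour gives the log2 intensity minus the mean of the gene. Control columns are mostly red and PIM1 columns mostly blue, SCARNA13 and SCARNA16 are blue in every group with stable PIM1, and RNU12 is reddest in PIM1+WT.

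Libraries labelled with and without stable PIM1 were compared within a dye, PIM1+WT with WT (the WT pair) and PIM1+MM with MM (the MM pair). In Cy3, PIM1+WT cells had lower levels of 16 of these RNAs than WT cells and a higher level of 1, RNU12, while 19 did not pass the test at an adjusted p below 0.05. The background was 27.3% of all genes tested (7037 of 25748), 14% lower and 13.3% higher. The median log2 fold change of the 36 genes was -0.26, with -0.23 and -0.28 in the replicates, against 0 over all genes. It was -0.57 on the scanner's processed signal and -0.42 after median centring. Those that fell were 6 scaRNAs, 3 H/ACA snoRNAs, 2 C/D snoRNAs, 7SK, 7SL, U2, telomerase RNA and 18S rRNA, the last of which was picked with its PIM1+WT value known. In Cy5, 17 of the 36 genes passed between PIM1+MM and MM cells, 8 lower and 9 higher, with a median of -0.07 (-0.16 on the processed signal and -0.02 after median centring) and a background of 19.4% (9.38% lower and 10% higher). This count was 11 without MM replicate 1 or 2, and 10 with only the groups compared in the fit, where SCARNA5, SCARNA7, SCARNA10, SCARNA17, SNORA53, SNORD15A and SNORD3B-1 no longer passed. With each channel centred on its median in place of quantile normalization, RNA18SN5 and SCARNA13 passed in the MM pair, and these genes with RNU12, SCARNA9, SCARNA12, SCARNA16, SCARNA17 and SNORD116-19 in the WT pair.

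The 8 genes that fell in both comparisons, which have no sample in common, were RN7SL1, RNA18SN5, SCARNA5, SCARNA9, SCARNA12, SCARNA13, SCARNA16 and SCARNA17. RNU12 rose in both. No gene passed as lower in one and as higher in the other. Over the 36 genes, 19 had negative log2 fold changes in both comparisons, 12 were negative in the WT and positive in the MM pair, and 5 were positive in both. The shares of all genes that did the same were not counted, so that no trait of the class is read from these counts. Pearson's r between the log2 fold changes of the comparisons was 0.87 over the 36 genes and 0.74 over all genes. These are descriptions, since genes are not independent and share arrays and normalization. The 0.87 includes RNA18SN5, which lies furthest out at -2.9 and -2.1 and was picked with its PIM1+WT value known. No r was computed without RNA18SN5, so that nothing is read from 0.87 against 0.74.

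**Figure D2:**
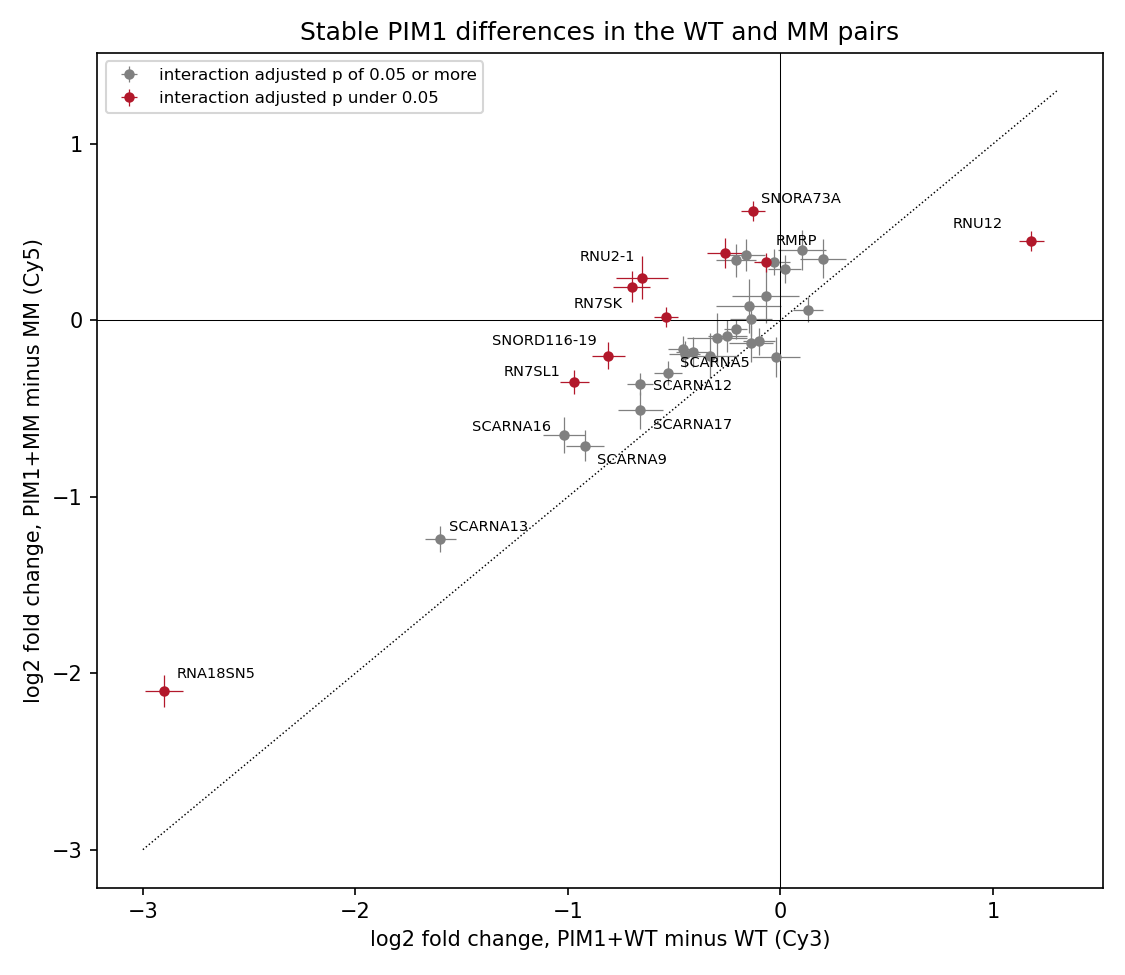
Log2 fold change between libraries labelled with and without stable PIM1 for each of the 36 genes, in the WT pair in Cy3 (x axis) and the MM pair in Cy5 (y axis). Bars are standard errors, red points passed the interaction, and the dotted line marks equal values; RNA18SN5 lies at -2.9 and -2.1, SCARNA13 at -1.6 and -1.24, and RNU12 at 1.18 and 0.45.

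Of the 12 scaRNAs, the largest class, 6 fell in the WT pair and the same 6 in the MM pair. The share of all genes that fell in both pairs was not counted, so that no trait of the scaRNAs is read from this. SCARNA13 read 10.42 and 10.23 in control, 10.04 and 9.98 in WT and 9.85 and 9.83 in MM cells, and 8.27 and 8.2 in PIM1, 8.39 and 8.43 in PIM1+WT and 8.56 and 8.63 in PIM1+MM cells. Every sample with stable PIM1 was thus below every sample without it, irrespective of dye. The log2 fold change was -1.6 in the WT pair (standard error 0.0721, adjusted p = 2.18e-06) and -1.24 in the MM pair (standard error 0.0721, adjusted p = 1.06e-05), and these values passed under every alternative run. SCARNA16 read 10.26 and 10.08 in control, 9.93 and 9.9 in WT and 9.8 and 9.84 in MM cells, and 8.87 and 8.66 in PIM1, 8.8 and 9.01 in PIM1+WT and 9.11 and 9.23 in PIM1+MM cells. As for SCARNA13, the samples with and without stable PIM1 did not overlap. SCARNA16 fell by 1.02 in the WT pair (adjusted p = 0.0001) and by 0.65 in the MM pair (adjusted p = 0.00204).

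SCARNA9 followed the same order, with 9.08 to 9.3 in control and WT, 8.86 and 9.08 in MM, and 7.83 to 8.31 in the 3 groups with stable PIM1. Its log2 fold changes were -0.92 (adjusted p = 0.0001) and -0.71 (adjusted p = 0.000755). SCARNA12 read 9.26 to 9.53 in the groups without stable PIM1, 8.17 and 8.11 in PIM1 cells and 8.8 to 8.96 in PIM1+WT and PIM1+MM cells, and fell by 0.66 (adjusted p = 7.89e-05) and 0.36 (adjusted p = 0.00335). In SCARNA17 the falls were 0.66 and 0.51, and in SCARNA5 0.53 and 0.3. The SCARNA17 value in the MM pair did not pass without MM replicate 2, nor the SCARNA5 value without MM replicate 1 or without PIM1+MM replicate 2. For none of these 6 scaRNAs did the interaction pass, with values from -0.15 to -0.37 and adjusted p from 0.117 to 0.739. The other 6 scaRNAs were SCARNA1, SCARNA2, SCARNA6, SCARNA7, SCARNA9L and SCARNA10, of which SCARNA7 rose by 0.33 and SCARNA10 by 0.4 in the MM pair (adjusted p = 0.0134 and 0.0391), the SCARNA7 value not passing without MM replicate 2 or PIM1+MM replicate 2. SCARNA10 was not well above background in MM cells and was so on 1 of the 2 PIM1+MM arrays. Its 1.32-fold rise is a bound for background in the main processing only. Over the alternatives the log2 fold change of SCARNA10 ran from 0.3 to 1.38, and with a sample left out from 0.3 to 0.51. The call was lost in 7 of the 12 fits with a sample left out. SCARNA9L, which resembles SCARNA9 in sequence, read 7.78 to 8.36 in all samples and passed in neither comparison (adjusted p = 0.402 and 0.439).

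RNA18SN5, one of several near-identical copies of the gene for 18S rRNA of the small ribosomal subunit, had the widest range of group means in the class, 3.2 on the log2 scale. It read 12.31 and 12.27 in control, 12.86 and 12.84 in WT and 13.11 and 13.19 in MM cells, and 11 and 11.1 in PIM1, 9.85 and 10.05 in PIM1+WT and 10.94 and 11.16 in PIM1+MM cells. The samples with stable PIM1 were all below those without it, and PIM1+WT samples were the lowest. Log2 fold changes were -2.9 between PIM1+WT and WT, -2.1 between PIM1+MM and MM, and -0.8 for the interaction, given without a test since the gene was known for its PIM1+WT value. The differences of 0.56 between WT and control (adjusted p = 0.0595) and of -0.3 between WT and MM cells (adjusted p = 0.198), which use other samples, did not pass.

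The spliceosomal snRNAs moved apart from each other. RNU12, the U12 snRNA of the minor spliceosome, read 8.86 and 8.88 in control, 9.06 and 9.07 in WT, 9.06 and 9.09 in MM, 9 and 9.01 in PIM1, 9.46 and 9.58 in PIM1+MM and 10.26 and 10.23 in PIM1+WT cells. Both PIM1+WT samples were above all others, followed by both PIM1+MM samples. It rose by 1.18 in the WT pair (standard error 0.0577, adjusted p = 3.12e-06) and by 0.45 in the MM pair (adjusted p = 0.000798), and the interaction was 0.74 (standard error 0.0816, adjusted p = 0.00651). The interaction of RNU12 did not pass after median centring, without WT replicate 1 or without PIM1+WT replicate 1 (adjusted p at most 0.0586 with a sample left out). RNU2-1, the U2 snRNA that pairs with the branch point of introns, read 9.85 and 9.81 in control, 9.27 and 9.14 in WT, 8.54 and 8.28 in MM, 8.22 and 8.07 in PIM1, 8.53 and 8.58 in PIM1+WT and 8.49 and 8.82 in PIM1+MM cells. It fell by 0.65 from WT to PIM1+WT (adjusted p = 0.00359), where the samples did not overlap, and differed by 0.24 from MM to PIM1+MM (adjusted p = 0.212), where they did.

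RN7SK, the 7SK RNA that holds the elongation factor P-TEFb inactive, read 13.85 and 13.86 in control, 13.51 and 13.66 in WT, 12.88 and 12.9 in PIM1+WT, 12.52 and 12.76 in MM, 12.8 and 12.85 in PIM1+MM and 11.79 and 11.67 in PIM1 cells. Within each dye the groups did not overlap, and PIM1 cells were the lowest. RN7SK fell by 0.7 between PIM1+WT and WT cells (standard error 0.0882, adjusted p = 0.000412). Between PIM1+MM and MM cells it differed by 0.19 (adjusted p = 0.176), and the interaction was -0.89 (standard error 0.125, adjusted p = 0.0129). The interaction of RN7SK missed the threshold without WT replicate 1 or 2, PIM1+WT replicate 1 or 2, or PIM1+MM replicate 2, where its adjusted p was at most 0.0818.

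RN7SL1, the RNA of the signal recognition particle, read 16.34 and 16.31 in control, 16.34 and 16.18 in WT, 15.24 and 15.34 in PIM1+WT, 15.65 and 15.61 in MM, 15.25 and 15.31 in PIM1+MM and 15.96 and 15.97 in PIM1 cells. Unlike most of the class, it was not lowest in PIM1 cells but in the PIM1+WT and PIM1+MM groups, whose samples overlapped. It fell by 0.97 in the WT pair (adjusted p = 1.88e-05) and by 0.35 in the MM pair (adjusted p = 0.00771), the latter not passing without MM replicate 1 (adjusted p = 0.0523) or with the scanner's processed signal. RN7SL1 was also the only one of the 36 genes that passed as lower in PIM1+MM than in PIM1 cells, by 0.68 (adjusted p = 0.00125).

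**Figure D3:**
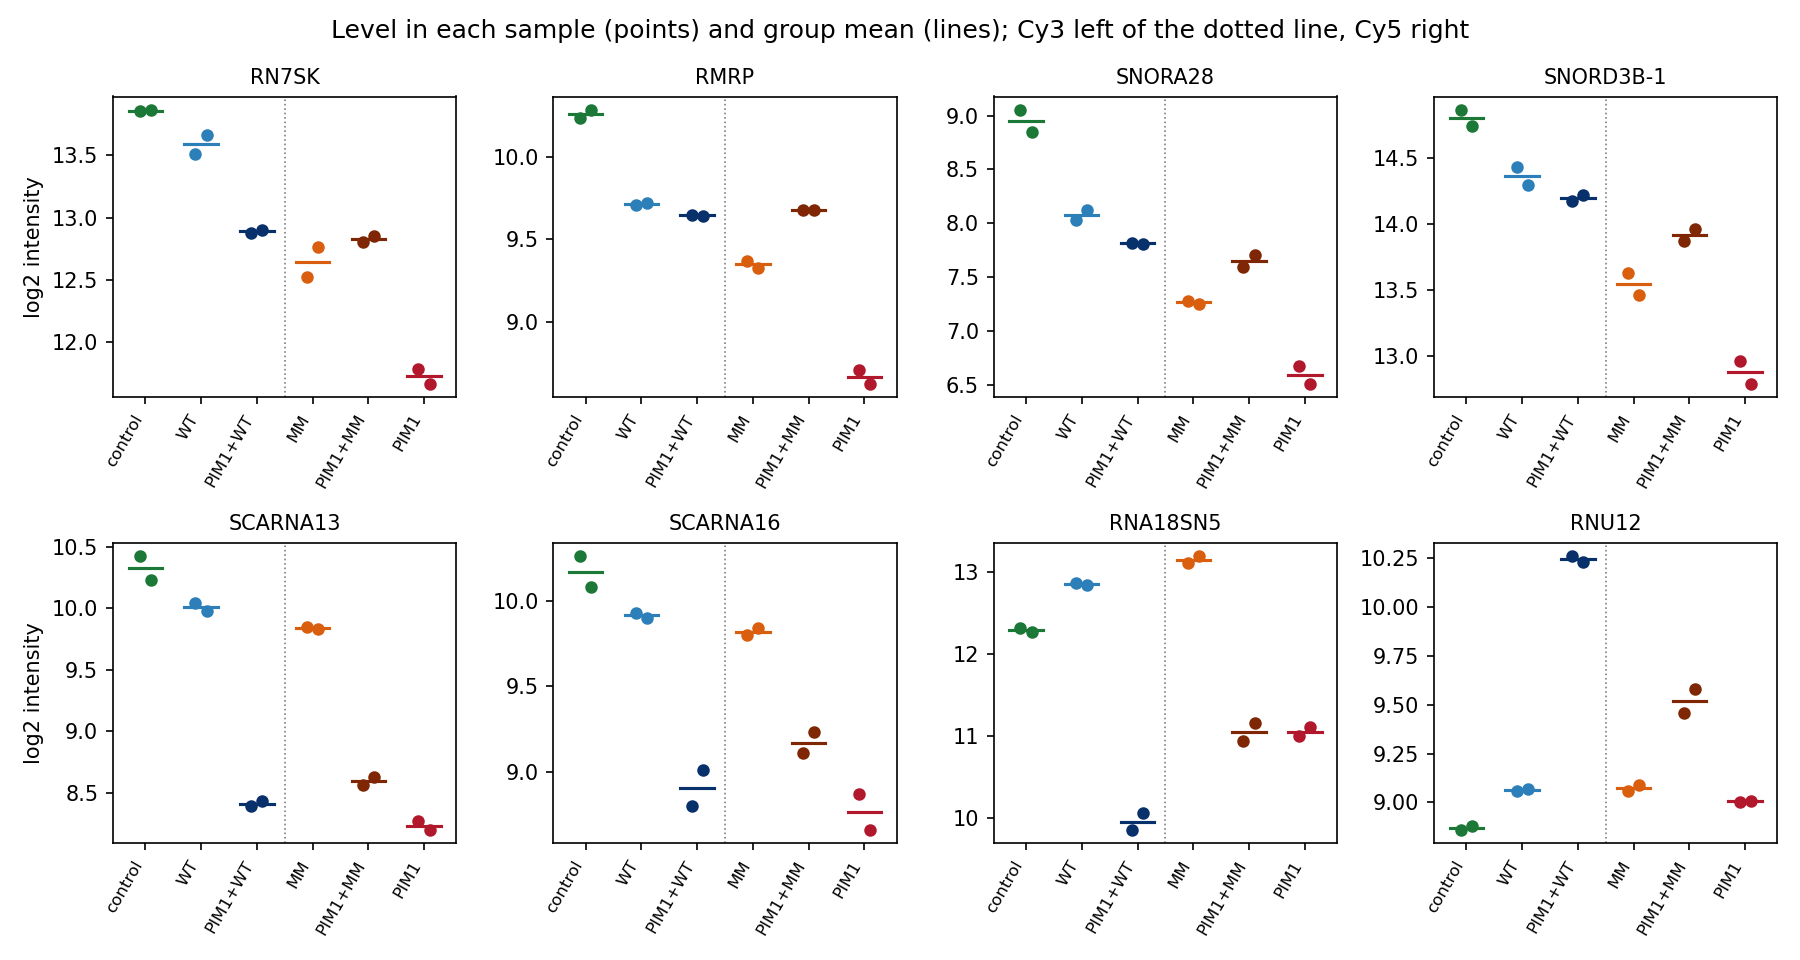
Log2 intensity of 8 of these RNAs in each sample, with points for the 2 samples of a group and a line at their mean, on separate y axes. In the upper row PIM1 samples are the lowest and control samples the highest, while SCARNA13, SCARNA16 and RNA18SN5 are low in all 3 groups with stable PIM1 and RNU12 is highest in PIM1+WT, with 10.26 and 10.23.

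RMRP, the RNA of RNase MRP, an enzyme of ribosomal RNA maturation, read 10.23 and 10.28 in control, 9.71 and 9.72 in WT, 9.65 and 9.64 in PIM1+WT, 9.37 and 9.33 in MM, 9.68 and 9.68 in PIM1+MM and 8.71 and 8.63 in PIM1 cells. It rose by 0.33 from MM to PIM1+MM (adjusted p = 0.00287) and differed by -0.07 from WT to PIM1+WT (adjusted p = 0.425). RPPH1, the RNA of RNase P, which trims the 5′ end of tRNA, read 9.37 and 9.19 in control and 7.99 and 7.84 in PIM1 cells, and 8.15 to 8.99 in the other 8 samples. It passed in neither stable PIM1 comparison within a dye (-0.33, adjusted p = 0.0984, and -0.2, adjusted p = 0.342), and its PIM1+MM samples lay apart, at 8.6 and 8.15. Its probe is in array row 44, near the rows of low signal in that replicate 2 channel, and the part of these rows in the RPPH1 values was not tested. TERC, the template RNA of telomerase, read 11.02 and 10.96 in control, 10.48 to 10.73 in the 4 groups labelled with NFATC1 and 10.15 and 10.11 in PIM1 cells. It fell by 0.21 from WT to PIM1+WT (adjusted p = 0.0176), which did not pass when any 1 of those 4 samples was left out or with loess normalization within arrays.

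Among box C/D snoRNAs, SNORD3B-1 is a copy of U3, which is needed for the first cleavages of the ribosomal RNA precursor. It read 14.86 and 14.74 in control, 14.43 and 14.29 in WT, 14.17 and 14.22 in PIM1+WT, 13.63 and 13.46 in MM, 13.87 and 13.96 in PIM1+MM and 12.96 and 12.79 in PIM1 cells. Its log2 fold change was 0.37 from MM to PIM1+MM (adjusted p = 0.019), which did not pass without MM replicate 2 or PIM1+MM replicate 2, and -0.16 from WT to PIM1+WT (adjusted p = 0.233). Both of its probes, with mean intensities of 11.24 and 16.65, had a PIM1 minus control value of -1.93, while between PIM1+MM and MM cells the dimmer gave 0.24 (adjusted p = 0.117) and the brighter 0.5 (adjusted p = 0.00617). SNORD116-19, from the imprinted SNORD116 cluster, read 9 and 8.8 in control, 8.39 and 8.39 in WT, 7.56 and 7.61 in PIM1+WT, 8.13 and 8.09 in MM, 7.84 and 7.98 in PIM1+MM and 7.23 and 7.18 in PIM1 cells. Within each dye the groups followed without overlap, and it fell by 0.81 from WT to PIM1+WT (adjusted p = 8.19e-05), with a difference of -0.2 from MM to PIM1+MM (adjusted p = 0.0984). SNORD17 fell by 0.41 in the WT pair, but not past the threshold without WT replicate 1 (adjusted p = 0.0502). SNORD15A rose by 0.29 in the MM pair (adjusted p = 0.0283), which did not pass without MM replicate 1 or PIM1+MM replicate 1.

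Among box H/ACA snoRNAs, SNORA73A, also called U17 and required for ribosomal RNA cleavage, read 9.01 and 9.09 in control, 8.82 and 8.81 in WT, 8.66 and 8.7 in PIM1+WT, 8.13 and 8.12 in MM, 8.69 and 8.79 in PIM1+MM and 7.37 and 7.36 in PIM1 cells. In Cy5 its groups were all apart, and it rose by 0.62 between PIM1+MM and MM cells (standard error 0.0576, adjusted p = 0.000143), while in Cy3 it differed by -0.13 (adjusted p = 0.134). Its copy SNORA73B, read in the rows of low signal, had 8.7 and 8.08 in PIM1+MM cells and a difference of 0.14 from MM cells (adjusted p = 0.611). With those rows left out of that channel, SNORA73B rose by 0.45 (adjusted p = 0.00497). SNORA28 read 9.05 and 8.85 in control, 8.03 and 8.12 in WT, 7.82 and 7.81 in PIM1+WT, 7.28 and 7.25 in MM, 7.59 and 7.7 in PIM1+MM and 6.67 and 6.51 in PIM1 cells, where it was not well above background. It rose by 0.38 from MM to PIM1+MM (adjusted p = 0.0132), not passing without MM replicate 1 or 2 or without PIM1+MM replicate 2, and differed by -0.26 from WT to PIM1+WT (adjusted p = 0.052).

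SNORA23 fell by 0.54 in the WT pair (adjusted p = 0.000155), from 8.2 and 8.16 to 7.59 and 7.68, and differed by 0.02 in the MM pair (adjusted p = 0.856). SNORA62 fell by 0.45 (adjusted p = 0.00149) and SNORA74B by 0.46 (adjusted p = 0.00109) in the same comparison. SNORA53 rose by 0.34 in the MM pair (adjusted p = 0.0343), which was lost without any 1 of those 4 samples. SNORA59B, SNORA74A and SNORA81 passed in neither comparison, nor did RNU105B and RNU105C, whose 12 values lay between 6.2 and 6.54 and between 6.12 and 6.43.

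The interaction asked whether the difference in the WT pair differed from that in the MM pair. The pairs differ by label in the form of NFATC1, but also in its measured amount and in dye. These cannot be told apart, except that a fixed dye difference drops out. The 90th percentile of negative controls was 36 to 46 in Cy3 and 122 to 132 in Cy5 channels. No background was subtracted, and the part of this floor in the interaction was not tested. The interaction passed for 10 of the 36 genes, against a background of 2.18% of all genes (1.7% positive and 0.482% negative). Of these, 9 were negative, that is, lower in the WT than in the MM pair, and RNU12 was positive. Beside RNA18SN5, RN7SK and RNU12, they were RNU2-1 with -0.89 (adjusted p = 0.0355), SNORA73A with -0.75 (adjusted p = 0.00651), SNORA28 with -0.64 (adjusted p = 0.0324), RN7SL1 with -0.62 (adjusted p = 0.0182), SNORD116-19 with -0.61 (adjusted p = 0.026), SNORA23 with -0.56 (adjusted p = 0.0139) and RMRP with -0.4 (adjusted p = 0.0343). The median over the 36 genes was -0.27, with 32 negative values (53.6% of all genes were negative), against -0.02 over all genes, and it was -0.46 on the processed signal. Without RN7SK, SNORA28 and RNA18SN5, 7 of the 33 other genes passed, 6 negative and 1 positive. The count was 0 after median centring and 17 with the array as a random block. It was 0 without WT replicate 1 or PIM1+WT replicate 1, 3 without WT replicate 2, MM replicate 1, MM replicate 2 or PIM1+MM replicate 2, and 4 without PIM1+WT replicate 2, with medians from -0.25 to -0.32.

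Within Cy5, PIM1+MM cells were compared with PIM1 cells, that is, by label, after transfection with MM NFATC1. Leaving out RN7SK, SNORA28 and RNA18SN5, 16 of the 33 other genes passed as higher and 1, RN7SL1, as lower. The median was 0.33, and the background was 12.4% (5.2% higher and 7.16% lower). SNORA73A rose by 1.38 (standard error 0.0576, adjusted p = 1.05e-05), SNORD3B-1 by 1.04 (adjusted p = 0.000683) and RMRP by 1.02 (standard error 0.0541, adjusted p = 7.25e-05). SCARNA12 rose by 0.81 (adjusted p = 0.000543), SNORA23 by 0.74 (adjusted p = 0.000569) and SNORD116-19 by 0.71 (adjusted p = 0.00149), whereas SCARNA13, SCARNA16 and SCARNA9 rose by 0.34 to 0.41. The call for SCARNA13 was lost without PIM1+MM replicate 2, that for SCARNA16 in 4 and that for SCARNA9 in 9 of the 12 fits with a sample left out. RN7SK had a difference of 1.1 and SNORA28 was at least 2.05-fold higher in the main processing. Both are given without a test, since they were chosen with their PIM1 values known. Over the alternatives the log2 fold change of SNORA28 ran from 0.65 to 2.36. With each channel centred on its median 0 genes passed (0.24 as the median over the 36), and in a fit of the groups compared only SNORA73A did. On the scanner's processed signal the median was 0.55.

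Within Cy3, WT cells were compared with control cells, and 3 of the 33 genes other than RN7SK, SNORA28 and RNA18SN5 passed, all lower, against a background of 0.233% (60 genes, 0.148% lower and 0.0854% higher). SNORD15A fell by 0.69 (adjusted p = 0.0146), from 8.35 and 8.26 to 7.59 and 7.65, RMRP by 0.54 (adjusted p = 0.00973) and SNORD116-19 by 0.51 (adjusted p = 0.0436). SNORA28 had -0.88, without a test, as its control samples were part of its choice. Without adjustment, 23 of the 36 genes and 10.7% of all genes had a p below 0.05. The 23 include RN7SK, SNORA28 and RNA18SN5, so that nothing is read from their number. The median was -0.25 over the 36 and also over the 33 other genes, against -0.02 over all genes. The count, which with SNORA28 was 4, was 0 after median centring, in a fit of the groups compared, without control replicate 1 or without WT replicate 1, 1 without WT replicate 2, and 2 with normexp background correction, with the processed signal or without the array shared by the first control and PIM1 samples.

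Between WT and MM cells, which differ in dye, 7 of the 36 genes passed, all higher in WT cells, and 0.808% of all genes did (0.559% higher and 0.249% lower). They were RN7SK with 0.95 (standard error 0.0882, adjusted p = 0.00458), SNORA28 with 0.81 (adjusted p = 0.00938), SNORD3B-1 with 0.81 (adjusted p = 0.0111), RNU2-1 with 0.8 (adjusted p = 0.0278), SNORA73A with 0.69 (adjusted p = 0.0026), RN7SL1 with 0.63 (adjusted p = 0.0111) and RMRP with 0.36 (adjusted p = 0.0268). No scaRNA was among them, the scaRNA values lying between -0.24 and 0.34. The count was 1 without WT replicate 1, 2 without MM replicate 1 or 2, 4 without WT replicate 2, and 0 after median centring, where the median was 0.36 in place of 0.16, or in a fit of these groups alone.

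The comparisons whose values chose the class are described without a test, and nothing is read from their counts. Between PIM1 and control cells, 33 of the 36 genes had negative values, 28 of them at the adjusted p used elsewhere, a level that 25% of all genes reached (12.4% lower and 12.6% higher). The median was -0.81, and -1.39 with the processed signal. In PIM1 cells neither array read SNORA28 well above background, and its control level was at least 5.05-fold higher in the main processing. Over the alternatives its log2 fold change ran from -4.11 to -2.09. RN7SK had -2.12, SCARNA13 -2.09, SNORD3B-1 -1.93 and, at the other end, SCARNA9L 0.23. Between PIM1+WT and PIM1+MM cells the median was -0.1, and RNA18SN5 had -1.1, RNU12 0.72, SNORD116-19 -0.33 and SNORA23 -0.29, the 4 genes at that level, which 16% of all genes reached (8.54% higher and 7.5% lower). After loess normalization this median was 0.01. Both comparisons set Cy3 against Cy5 channels.

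Whether the RNAs moved together was described by centring each gene on its mean over the 12 channels. The median deviation of the 36 genes was 0.53 and 0.45 in control, 0.22 and 0.2 in WT, -0.09 and -0.11 in PIM1+WT, -0.05 and -0.02 in MM, -0.07 and -0.05 in PIM1+MM and -0.33 and -0.37 in PIM1 samples. Within Cy3 the samples of the 3 groups did not overlap, whereas in Cy5 only the PIM1 samples lay apart. Group means fell from control over WT to PIM1+WT for 27 of the 36 genes (27.4% of all genes) and from MM over PIM1+MM to PIM1 for 15 (17.4% of all genes). The mean was highest in control cells for 26 of the 36 genes (17.9% of all genes) and lowest in PIM1 cells for 22 (16.9% of all genes). Both counts include RN7SK and SNORA28, which were known to be low in PIM1 against control cells when the class was chosen. These counts and medians are therefore a description without a test.

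The median of Pearson's r over all 630 pairs of the 36 genes was 0.55 over the 12 channels, 0.78 over the 6 Cy3 channels and 0.38 over the 6 Cy5 channels, compared with 0.01 for the 1670 of 1673 other noncoding genes that could be correlated over the 12 channels. These points share arrays, dyes and normalization. They also include RN7SK, SNORA28 and RNA18SN5 and the channels in which their known values chose the class. No r was computed without them, so that the values of r are a description without a test. For the 25 genes with a mean log2 intensity over 7.5, a limit set after the values were seen, the medians were 0.76, 0.91 and 0.66. TERC (0.98), SNORD116-19 (0.97), RNU2-1 and SNORA23 (0.95 each) correlated most with the median of the other members, and RNU12 (-0.36) and SCARNA9L (-0.34) least. The 11 genes with lower intensity had medians of -0.1 and 0.06 in the WT and MM pairs.

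Replication-dependent histone mRNAs, which also lack a poly(A) tail, were taken as a class for comparison. Their median r over 65 genes was 0.13 over the 12 channels, 0 in Cy3 and 0.29 in Cy5. Their median log2 fold changes were -0.1 in the WT and 0.14 in the MM pair, -0.21 between WT and control, 0.22 between PIM1+MM and PIM1, and 0.13 between WT and MM cells. For the interaction the histone median was -0.24, near the -0.27 of the 36 genes, and 10 of 65 passed, all negative. Their channel medians were highest in control (0.23 and 0.23) and lowest in PIM1 samples (-0.15 and -0.19), as for the 36 genes, but with smaller deviations. The difference between the classes was not tested.

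**Figure D4:**
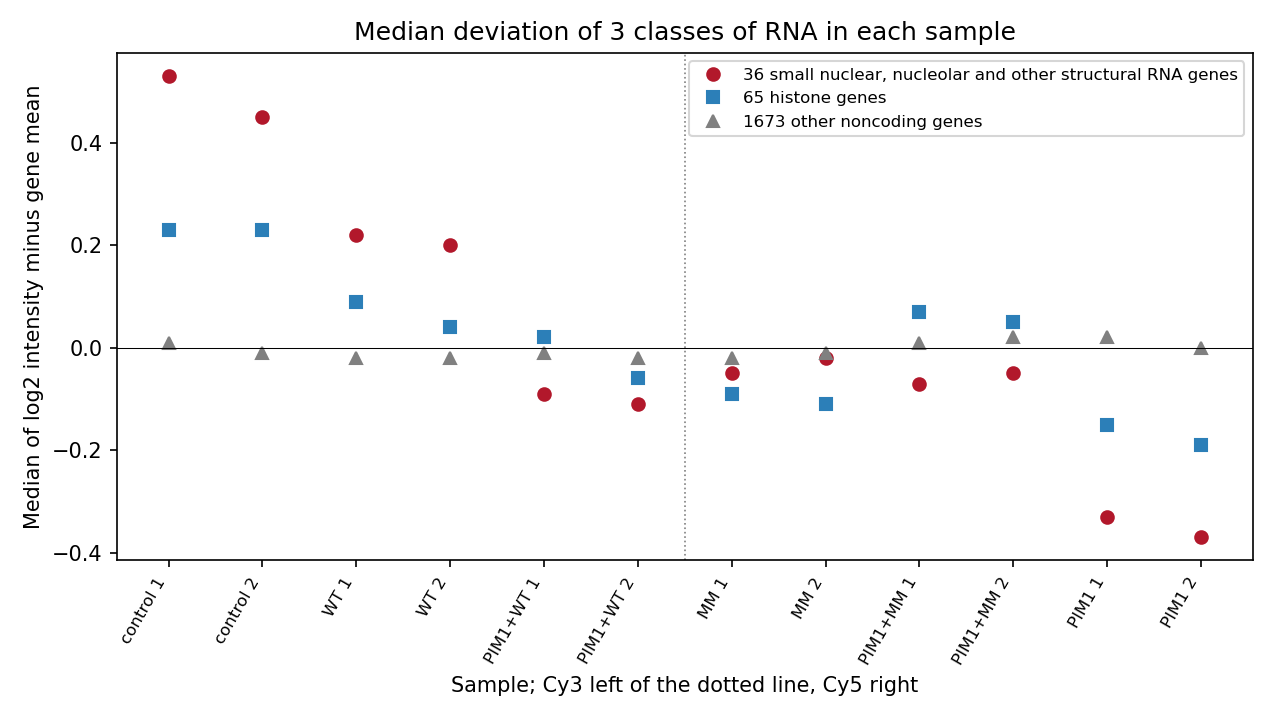
Median over genes of the log2 intensity minus the mean of each gene, per sample, for the 36 RNA genes (circles), 65 replication-dependent histone genes (squares) and 1673 other noncoding genes (triangles). The circles run from 0.53 in a control sample to -0.37 in a PIM1 sample, the squares from 0.23 to -0.19, and the triangles stay within 0.02 of 0.

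Since most snoRNAs and scaRNAs lie in introns, the genes that span them in the RefSeq annotation of GRCh38.p14 were examined. Of the 36 genes, 26 lay within another gene, and 27 pairs of an RNA and a spanning gene could be compared. Spans were matched by position without regard to strand, so that a spanning gene need not be a host. The pairs include RN7SL1 with RPS29, although 7SL is made by RNA polymerase III. The r between their log2 fold changes was 0.07 in the WT and -0.02 in the MM pair, with the same sign in 21 and 15 pairs, as a description over pairs that share arrays. SCARNA13 lies in SNHG10, which fell by 0.7 (adjusted p = 0.000202) and 0.39 (adjusted p = 0.00748), against -1.6 and -1.24 for SCARNA13. SCARNA16 lies within SNHG20 and SEC14L1, which differed by 0.03 and -0.14 in the WT pair (adjusted p = 0.816 and 0.105). SCARNA12 fell, whereas PHB2, which spans it, rose by 0.42 in the WT pair (adjusted p = 0.0169). SNORA73A lies in SNHG3, which fell by 0.95 (adjusted p = 6.99e-05) and 0.66 (adjusted p = 0.000912), where SNORA73A had -0.13 and 0.62. Whether a probe also binds the precursor of the host gene was not tested, as probe sequences were not used here.

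The protein partners of these RNAs were taken from lists written by hand, whose counts stand against 27.3% of all genes passing in the WT and 19.4% in the MM pair. The shares passing in the WT pair were 12.5% for 7SK, 66.7% for signal recognition particle, 75% for box C/D, 40% for box H/ACA and 22.2% for RNase P and RNase MRP proteins. Of 8 genes for the 7SK particle and P-TEFb, 1 fell between PIM1+WT and WT cells, LARP7, which binds the 3′ end of 7SK, by 0.3 (adjusted p = 0.0239), and the median was -0.11. In the MM pair 2 fell, among them MEPCE, which caps 7SK, by 0.27 (adjusted p = 0.0216). Of 6 proteins of the signal recognition particle, 2 rose and 2 fell, with SRP68 at 0.37 (adjusted p = 0.000713), and in the MM pair 2 rose and 1, SRP54, fell by 0.26 (adjusted p = 0.0284). Of 8 box C/D proteins 2 rose and 4 fell, among them NOP56, a core protein, by 0.46 (adjusted p = 0.000636), and of 10 box H/ACA and Cajal body proteins 1 rose and 3 fell, with NOLC1, a snoRNP chaperone, at -0.49 (adjusted p = 0.000591). Of 9 RNase P and RNase MRP proteins 0 rose and 2 fell, POP7 by 0.39 (adjusted p = 0.00106). In the MM pair 1 box C/D protein, ZNHIT6, rose by 0.49 (adjusted p = 0.00155) and 4 fell, and of the RNase P and RNase MRP proteins 1 rose and 1, RPP40, fell by 0.23 (adjusted p = 0.0231). In PIM1+MM against MM cells 0 of the 10 box H/ACA and Cajal body proteins passed in limma. At an unadjusted p below 0.05 there were 3, a level that 31.8% of all genes reached.

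The other lists passed at 38.1% for RNA polymerase III, 21.7% for snRNA transcription, 58.3% for spliceosomal, 55% for exosome, 40% for Y RNA and vault and 60% for host genes in the WT pair, and at 4.76%, 17.4%, 29.2%, 10%, 40% and 31.4% in the MM pair. Among 21 genes of RNA polymerase III and its factors, 5 rose and 3 fell between PIM1+WT and WT cells, and MAF1, a repressor of this polymerase, rose by 0.82 (standard error 0.0592, adjusted p = 1.96e-05). Between PIM1+MM and MM cells 1 of the 21, BRF2, which serves type 3 promoters such as that of 7SK, rose by 0.33 (adjusted p = 0.00345). Of 23 genes for snRNA transcription and Integrator, 1 rose and 4 fell in the WT pair, SNAPC4 by 0.51 (adjusted p = 0.000354), and 1, INTS1, rose by 0.37 (adjusted p = 0.00362) and 3 fell in the MM pair. Of 24 proteins of spliceosomal snRNPs and SMN, 4 rose and 10 fell, SNRNP70 rising by 0.71 (adjusted p = 0.000385), and in the MM pair 1 rose and 6 fell, SNRPB2 by 0.51 (adjusted p = 0.00445). For 20 genes of the nuclear exosome and 3′ end processing, 3 rose and 8 fell, MTREX by 0.36 (adjusted p = 0.00155), and in the MM pair 0 rose and 2 fell, EXOSC3 by 0.24 (adjusted p = 0.0113). Of 5 proteins of Y RNA and vault particles, MVP, the major vault protein, rose by 0.5 (adjusted p = 0.000649) and 0.47 (adjusted p = 0.00156), 1 other fell in the WT and 1 other rose in the MM pair. Between WT and control cells 0 genes of any of these lists passed in limma, where 0.233% of all genes did, so that nothing is read from this. Each list had 0 to 7 genes at an unadjusted p below 0.05, a level that 10.7% of all genes reached. Among 35 snoRNA host genes 7 rose and 14 fell in the WT pair, with a median of -0.19, and 2 rose and 9 fell in the MM pair, with SNHG18 up by 1.32 (adjusted p = 5.73e-05) and a median of -0.15.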

How the data were processed

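Total RNA of PC-3 cells was labelled with Cy3 or Cy5 and hybridized in pairs to 6 arrays on 2 slides. The authors deposited, per spot, the raw intensity and background intensity of Feature Extraction 11.0.1.1, its processed signal intensity, its flags, and a log2 table, which matched the quantile-normalized log2 raw median signal to within 0.0844. The channel of a sample was taken from its dye label. Spots flagged as outliers were left out, spots of a probe averaged, and probes above the 90th percentile of 153 negative control spots in at least 2 channels kept (31486 probes). No background was subtracted. Log2 intensities were quantile normalized and a gene's value was the median of its probes. Symbols came from matching RefSeq transcripts to the RefSeq annotation of GRCh38.p14, and 26377 of 34127 probes had one.

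A linear model with a mean for each group was fitted to all 12 samples (limma 3.58.1, R 4.3.3). P-values are two-sided and Benjamini-Hochberg adjusted over all genes tested. A gene passed at an adjusted p below 0.05. The fit was tested on simulated data. Where a group was not well above background on both arrays, the fold is a lower bound, with each dim channel set to the higher of its own value and the lowest probe well above background. This bound concerns background only, and allows neither for the spread between samples nor for the processing.

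The members and lists were chosen with earlier results of these data known. Full values are given for RN7SK, SNORA28, RNA18SN5, the 15 passing members with the lowest p, the brightest gene of each class and, of each list, the gene with the lowest p in each stable PIM1 comparison, and other members are named so that all 36 are accounted for. Alternatives were normexp background correction (offset 50), loess within arrays, median centring, no filter or one in all 12 channels, the deposited values, the processed signal, flags kept, the brightest probe per gene, slide or array as a block, fits of the groups compared, the first 33 rows or the first array left out, and each sample left out, where the spread of the lone sample left is taken from the other groups. The number of arrays limits the precision.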

Additional observations from a re-analysis of the deposited data

Results flagged for a closer look

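In 9 RNAs of the class the difference between PIM1+WT and WT differed from that between PIM1+MM and MM, by the interaction at an adjusted p below 0.05. It was -0.89 in RN7SK and in RNU2-1, -0.75 in SNORA73A, -0.64 in SNORA28, -0.62 in RN7SL1, -0.61 in SNORD116-19, -0.56 in SNORA23 and -0.4 in RMRP, and 0.74 in RNU12. RNA18SN5, with -0.8, is left out since its PIM1+WT value was known when the class was picked. The replicates had the same sign in each of the 9. All 9 calls were lost after median centring, and each was lost in 2 to 9 of the 12 fits with a sample left out, with 0 calls left without WT replicate 1 or without PIM1+WT replicate 1. The libraries labelled PIM1+WT read NFATC1 at 7.58, as did control libraries, so that the pairs differ in its measured amount as well as in its labelled form.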

How the results depend on the processing

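Of the members that passed, SCARNA1 and SNORA74A changed sign, both in PIM1 minus control after median centring (0.05 and 0.01, from -0.43 each), and no other did in any comparison or alternative. Leaving out a sample gave counts of members passing of 15 to 18 with medians of -0.29 to -0.22 for PIM1+WT minus WT, 11 to 19 (-0.09 to -0.02) for PIM1+MM minus MM, 0 to 4 (-0.28 to -0.2) for WT minus control, 15 to 18 (0.27 to 0.37) for PIM1+MM minus PIM1, 1 to 8 (0.15 to 0.19) for WT minus MM, 0 to 10 (-0.32 to -0.25) for the interaction, 26 to 29 (-0.84 to -0.73) for PIM1 minus control and 2 to 6 (-0.12 to -0.06) for PIM1+WT minus PIM1+MM, 2 without PIM1+WT replicate 1. In that order of comparisons, median centring gave counts of 8, 2, 0, 0, 0 and 0 for the first 6 and 0 for the last, and medians of -0.42, -0.02, -0.2, 0.24, 0.36, -0.34, -1.03 and -0.05. The processed signal gave medians of -0.57, -0.16, 0.55, 0.21, -0.46 and -1.39 for the comparisons in that order other than WT minus control, which had a count of 2, and PIM1+WT minus PIM1+MM. Normexp gave a median of -0.21 in the first and 0.37 in the fourth comparison, and a count of 2 for WT minus control. Loess within arrays gave medians of 0.21 for PIM1+MM minus PIM1, -0.2 for the interaction and 0.01 for PIM1+WT minus PIM1+MM, and counts of 7 for WT minus control and 6 for the interaction. The filter in all 12 channels kept 32 members, with medians of -0.31 in the first, 0.39 in the fourth and -0.86 in the seventh comparison, and counts of 7 for WT minus control and 8 for PIM1+WT minus PIM1+MM. Fits of the groups compared gave counts of 10, 0, 1, 0 and 2 for PIM1+MM minus MM, WT minus control, PIM1+MM minus PIM1, WT minus MM and PIM1+WT minus PIM1+MM. Without the first array WT minus control had a count of 2 and a median of -0.2, PIM1 minus control a median of -0.76, and PIM1+WT minus PIM1+MM a count of 8. The array as a random block gave counts of 12 for WT minus MM, 17 for the interaction and 10 for PIM1+WT minus PIM1+MM. The causes were not tested.

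Replicate numbers follow the slides. Deviations of samples of the same number correlated between groups, with r from 0.05 to 0.83 over the 15 pairs of groups and above 0.1 in 7. The main fit did not take these samples as pairs, whereas the fit with a replicate block did. The replicate block gave counts of 18, 17, 4, 20, 8, 11, 28 and 6 in the order above, with medians of -0.26, -0.07, -0.25, 0.33, 0.16, -0.27, -0.81 and -0.1. The SD between replicates of the median over members was 0.0401, pooled over 8 comparisons that share samples. With 2 samples a group it is no limit at which medians can be told apart, and some alternatives moved medians by more. Members near background, such as RNU105B, RNU105C and SCARNA10, could show no fall.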
